A study of Mus musculus with 18 samples.

Results

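The 9 genes that encode transcription factors of the myeloid lineage, Spi1, Cebpa, Cebpb, Cebpd, Cebpe, Klf4, Klf6, Maf and Gfi1, were examined in RNA-sequencing libraries labelled as mouse spleen. They were taken by gene symbol from the Ensembl gene rows, which gave 9 genes of 47729 listed, and all 9 were among the 11455 protein-coding genes tested. The 18 libraries came from C57BL/6J mice labelled female and 4 to 6 weeks old. The labels put 6 libraries in LPPC/mp/CD28, 6 in LPPC/mp/CD152, 3 in LPPC/mp and 3 in Naive. LPPC is a lipid, polyethylene glycol and polyethylenimine particle that adsorbs proteins, mp denotes the membrane proteins of antigen-loaded dendritic cells, and CD28 and CD152 denote the antibody added to the particle (CD152 is another name of CTLA4). By the study's methods, LPPC/mp mice were primed and boosted with the particle carrying membrane proteins alone, and LPPC/mp/CD28 and LPPC/mp/CD152 mice received the same 2 doses and then 1 or 2 weekly intravenous doses of the antibody-bearing particle. The labels do not say which library had 1 dose and which had 2, and spleens were taken a week after the last dose, so the groups with antibody were also later than LPPC/mp. No source says whether each library was a separate mouse, so p-values measure the spread between these libraries.

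PU.1, the product of Spi1, sets the myeloid programme together with C/EBPα (Cebpa), and their balance with other factors steers progenitors toward granulocytes or macrophages. C/EBPε (Cebpe) drives late granule genes of neutrophils, whereas C/EBPβ (Cebpb) and C/EBPδ (Cebpd) are induced by inflammatory signals and by emergency granulopoiesis. Klf4 and Klf6 are Kruppel-like zinc-finger factors of monocytes and macrophages, and Maf is a leucine-zipper factor of tissue macrophages and of some T cells. Gfi1 is a transcriptional repressor that acts in neutrophil and lymphocyte development.

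The libraries of the LPPC/mp/CD152 and Naive groups were of 2 kinds by their Y-linked transcripts. The Y-linked transcript Eif2s3y was at 0 FPKM (fragments per kilobase of transcript, scaled to library size) in LPPC/mp/CD152 2 and 5 and in Naive 1 and 2, and at 31.0 to 43.0 FPKM in the other 14 libraries, which goes against the label female. Those 4 libraries had 55.5 to 68.8 FPKM of the T cell gene Cd3e and 267 to 307 FPKM of the myeloid gene Lyz2. The other 5 libraries of these groups had 0.843 to 5.58 FPKM of Cd3e and 2589 to 2888 FPKM of Lyz2. The 9 LPPC/mp/CD28 and LPPC/mp libraries had 6.93 to 15.6 FPKM of Cd3e and 1386 to 1491 FPKM of Lyz2. The X-linked transcript Xist was at 48.1 to 59.9 FPKM in the 4 libraries without Eif2s3y and 0.286 to 2.69 FPKM in the other 5. In the 9 LPPC/mp/CD28 and LPPC/mp libraries Xist was at 4.84 to 7.20 FPKM, between the 2 kinds. Haemoglobin genes took 16.8% to 18.4% of the FPKM in LPPC/mp/CD152 2 and 5 and in Naive 2 and at most 1.85% in any other library. The sample notes describe a melanoma extraction. The 6 melanocyte genes listed summed to 0.0323 to 2.01 FPKM per library, with Dct and Tyr at 0 in all 18, Pmel at 0.0188 to 1.97 FPKM, and Mlana, Sox10 and Tyrp1 at most at 0.216, 0.0798 and 0.0397 FPKM. For the 9 factors, every comparison that used LPPC/mp/CD152 or Naive is therefore also given without each kind of library. Lists of other genes are given in that way only where stated. Since the 9 LPPC/mp/CD28 and LPPC/mp libraries matched neither kind, no such comparison that includes them is between libraries of 1 kind. Depth was 5.21 to 7.92 aligned gigabases per library.

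In all, 6 of the 9 factors passed as higher in LPPC/mp/CD28 than in both Naive and LPPC/mp/CD152: Cebpb, Cebpd and Cebpe, Spi1, Klf4 and Klf6. Of the 11455 genes tested, 13.6% passed as higher against Naive and 11.3% against LPPC/mp/CD152. The same 6 were higher whether the 4 libraries without Y-linked transcripts or the other 5 were left out. Cebpa, Maf and Gfi1 did not pass in the fit of all 18 libraries, and each of these 3 took opposite directions when one or the other kind of library was left out. In the fit of all 18 libraries no factor passed between LPPC/mp/CD28 and LPPC/mp, or between LPPC/mp/CD152 and Naive.

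**Figure D1:**
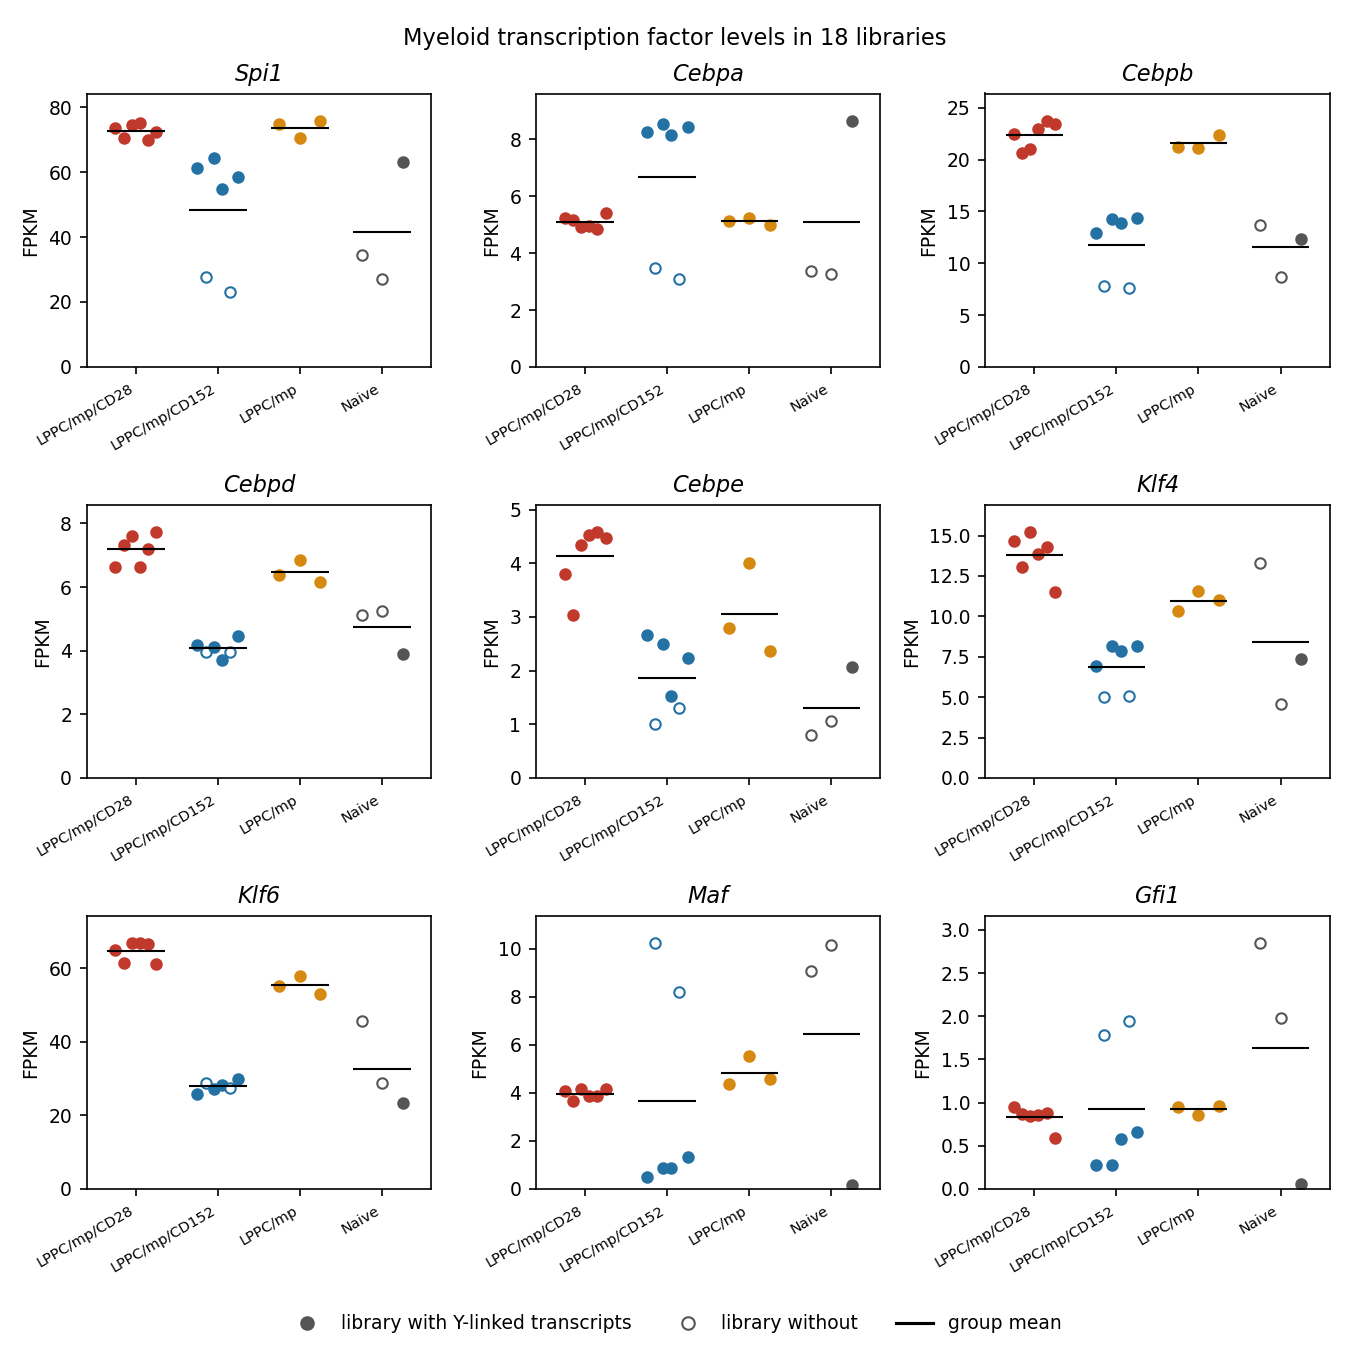
FPKM of the 9 factors (vertical axes, linear, from 0) in the 18 libraries by treatment label (horizontal axes), 1 point a library, with filled points for libraries with Y-linked transcripts, open points for the 4 without, and a line at the group mean. Cebpd and Klf6 sat in narrow bands in LPPC/mp/CD152, from 3.72 to 4.47 and from 25.7 to 29.9 FPKM, while the open points of Cebpa, Maf and Gfi1 stood apart from the filled points of LPPC/mp/CD152 and Naive.

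Cebpb, the inflammation-linked member of the C/EBP family, lies at chr2:167688915-167690418 on the plus strand (mm10) and has a single exon. Its level in LPPC/mp/CD28 was 20.6 FPKM in the lowest library, 22.7 at the median and 23.7 in the highest, against 7.61, 13.4 and 14.3 FPKM in LPPC/mp/CD152. LPPC/mp libraries had 21.2, 21.1 and 22.4 FPKM, and Naive libraries had 13.6, 8.67 and 12.3 FPKM. Every LPPC/mp/CD28 and LPPC/mp library lay above every LPPC/mp/CD152 and Naive library. The log2 fold change of FPKM + 0.5 was 0.95 ± 0.20 (SE) in LPPC/mp/CD28 against Naive (limma, Benjamini-Hochberg adjusted p = 0.0017) and 0.94 ± 0.16 against LPPC/mp/CD152 (adjusted p = 2.8e-04). An exon of Tmem189 on the opposite strand, at chr2:167689511-167689822, lies inside the Cebpb exon. Tmem189 averaged 51.8 FPKM over the libraries, and since the strandedness of the libraries is not given in the sources used here, reads of the 2 genes cannot be told apart there.

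Cebpd, the other inflammation-induced member, lies at chr16:15887286-15888466 on the plus strand. It had 6.64 FPKM in the lowest, 7.27 at the median and 7.74 in the highest LPPC/mp/CD28 library, against 3.72, 4.04 and 4.47 FPKM in LPPC/mp/CD152. LPPC/mp libraries had 6.38, 6.85 and 6.16 FPKM, against 5.11, 5.25 and 3.91 FPKM in Naive 1, 2 and 3. As with Cebpb, the LPPC/mp/CD28 and LPPC/mp libraries were all above the other 9, and here the 2 kinds of LPPC/mp/CD152 library overlapped. The log2 fold change was 0.56 ± 0.09 against Naive (adjusted p = 2.2e-04) and 0.75 ± 0.07 against LPPC/mp/CD152 (adjusted p = 1.3e-06).

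Cebpe, the factor of late granule formation, lies at chr14:54710363-54712174 on the minus strand and was the lowest of the 9 in 4 libraries, all 4 of them without Y-linked transcripts. Its level was 3.04 FPKM in the lowest, 4.40 at the median and 4.59 in the highest LPPC/mp/CD28 library, against 0.995, 1.88 and 2.66 FPKM in LPPC/mp/CD152. In LPPC/mp it was 2.79, 4.01 and 2.36 FPKM, and Naive libraries had 0.801, 1.06 and 2.07 FPKM. The LPPC/mp/CD28 libraries were above all LPPC/mp/CD152 and Naive libraries, while LPPC/mp overlapped LPPC/mp/CD152. The log2 fold change was 1.40 ± 0.25 against Naive (adjusted p = 5.9e-04), the largest of the 9 factors in that comparison, and 1.01 ± 0.21 against LPPC/mp/CD152 (adjusted p = 0.0014).

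Cebpa, the factor that opens the granulocyte and monocyte programme, did not share this order. It lies at chr7:35119293-35121928 on the plus strand and had 4.84 FPKM in the lowest, 5.05 at the median and 5.42 in the highest LPPC/mp/CD28 library, against 3.09, 8.22 and 8.55 FPKM in LPPC/mp/CD152. In LPPC/mp it was 5.14, 5.24 and 4.99 FPKM, and Naive libraries had 3.38, 3.25 and 8.65 FPKM. The 9 LPPC/mp/CD28 and LPPC/mp libraries lay between the 2 kinds of the other groups, with the 4 libraries without Y-linked transcripts at 3.09 to 3.46 FPKM below them and the other 5 at 8.16 to 8.65 FPKM above them. On the log2 scale the fold change was 0.13 ± 0.32 against Naive (adjusted p = 0.75) and -0.26 ± 0.26 against LPPC/mp/CD152 (adjusted p = 0.50).

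Since Cebpb and Cebpa of the same family took different orders, their ratio was computed per library, a choice made after their values were seen. Cebpb FPKM over Cebpa FPKM was 4.00 to 4.90 in LPPC/mp/CD28 and 1.57 to 2.46 in LPPC/mp/CD152, which did not overlap. The ratio was 4.02 to 4.49 in LPPC/mp and 4.03, 2.67 and 1.43 in Naive 1, 2 and 3, so that Naive 1 lay within the range of LPPC/mp/CD28. These ratios are a description, with no test.

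**Figure D2:**
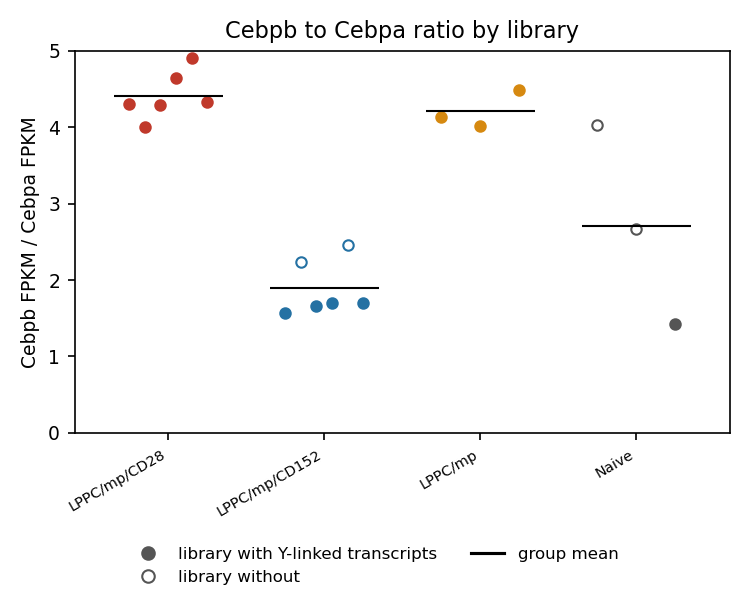
Ratio of Cebpb FPKM to Cebpa FPKM (vertical axis, linear, from 0, no unit) in each library by treatment label, with filled points for libraries with Y-linked transcripts, open points for those without, and a line at the group mean. LPPC/mp/CD28 libraries sat at 4.00 to 4.90, above all LPPC/mp/CD152 libraries at 1.57 to 2.46.

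Spi1 lies at chr2:91082390-91115756 on the plus strand. It had 69.8 FPKM in the lowest, 73.0 at the median and 75.0 in the highest LPPC/mp/CD28 library, against 23.1, 56.5 and 64.3 FPKM in LPPC/mp/CD152. The LPPC/mp libraries were at 74.7, 70.6 and 75.8 FPKM, and Naive libraries had 34.6, 27.2 and 63.0 FPKM. All LPPC/mp/CD28 and LPPC/mp libraries exceeded all others, and within LPPC/mp/CD152 and Naive the libraries without Y-linked transcripts were the low ones. The log2 fold change was 0.89 ± 0.30 against Naive (adjusted p = 0.033) and 0.69 ± 0.25 against LPPC/mp/CD152 (adjusted p = 0.045). Both calls were near the threshold. The adjusted p was 0.051 and 0.070 with no filter on low values, and 1 library could end either call. Against Naive this held for Naive 1 and 2 (log2 fold change 0.80 and 0.63 without them) and for LPPC/mp/CD28 1, 3, 4 and 6 (0.88 to 0.89). Against LPPC/mp/CD152 it held for LPPC/mp/CD152 2 and 5 (0.55 and 0.50), for any LPPC/mp/CD28 library (0.68 to 0.70) and for any LPPC/mp library (0.69).

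Klf6, a Kruppel-like factor of activated macrophages, lies at chr13:5861489-5870393 on the plus strand. Its level was 61.1 FPKM in the lowest, 65.8 at the median and 66.9 in the highest LPPC/mp/CD28 library, against 25.7, 27.8 and 29.9 FPKM in LPPC/mp/CD152. LPPC/mp libraries had 55.1, 57.8 and 53.1 FPKM, against 45.8, 28.7 and 23.4 FPKM in Naive 1, 2 and 3. All LPPC/mp/CD28 libraries were above all LPPC/mp libraries, which were above all Naive and LPPC/mp/CD152 libraries. The log2 fold change was 1.03 ± 0.14 against Naive (adjusted p = 4.3e-05) and 1.20 ± 0.11 against LPPC/mp/CD152 (adjusted p = 8.6e-07), the largest of the 9 factors in the comparison with LPPC/mp/CD152.

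Klf4, which promotes monocyte differentiation, lies at chr4:55527143-55532466 on the minus strand. Its level was 11.5 FPKM in the lowest, 14.1 at the median and 15.2 in the highest LPPC/mp/CD28 library, against 5.04, 7.41 and 8.15 FPKM in LPPC/mp/CD152. The 3 LPPC/mp libraries lay at 10.3 to 11.6 FPKM, and Naive libraries had 13.3, 4.57 and 7.35 FPKM. LPPC/mp/CD28 did not overlap LPPC/mp/CD152 but did overlap Naive, where Naive 1 was the high library. Its log2 fold change was 0.80 ± 0.23 against Naive (adjusted p = 0.015) and 0.98 ± 0.19 against LPPC/mp/CD152 (adjusted p = 9.0e-04). Without Naive 2 the change against Naive was 0.45 (adjusted p = 0.14).

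Upstream sequence was read from RefSeq (build GRCm38.p6), which matched 5 of the 9 genes by symbol, and is shown for Cebpb and Klf6 because both were higher in LPPC/mp/CD28 against both other groups and their start regions differ in motif content. Capitals mark TGACG, the half-site of CREB and ATF factors, and CCAAT, on either strand. The windows are the 250 bases before the start, chr2:167688665-167688914 and chr13:5861239-5861488, both on the plus strand.
Cebpb: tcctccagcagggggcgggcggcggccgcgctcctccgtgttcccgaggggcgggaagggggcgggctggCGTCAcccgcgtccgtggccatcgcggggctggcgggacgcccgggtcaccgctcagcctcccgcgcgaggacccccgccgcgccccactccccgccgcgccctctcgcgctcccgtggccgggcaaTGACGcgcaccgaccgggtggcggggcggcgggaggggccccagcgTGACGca
Klf6: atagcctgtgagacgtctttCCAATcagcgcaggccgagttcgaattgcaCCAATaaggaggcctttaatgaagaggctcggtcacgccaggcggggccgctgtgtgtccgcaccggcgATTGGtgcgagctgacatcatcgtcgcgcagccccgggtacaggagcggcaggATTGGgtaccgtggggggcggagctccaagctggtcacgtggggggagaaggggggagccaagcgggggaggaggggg
The Cebpb window held 3 TGACG matches, at -180, -53 and -7 from the start, and no CCAAT, whereas the Klf6 window held 4 CCAAT matches, at -230, -200, -131 and -78, and no TGACG. No TGACG match overlapped a CCAAT match. Of 32817 promoter windows of this length, 17.7% held a TGACG and 0.689% held 3 or more, and 33.8% held a CCAAT and 2.79% held 3 or more. GGGCGG, the GC box, was matched 5 times in Cebpb and 1 time in Klf6, and was in 32.7% of windows. These matches describe the letters of the windows and were not measured as binding. The Cebpa and Gfi1 windows held neither TGACG nor CCAAT. The Klf4 window, of a gene also higher against both groups, held 1 TGACG, at -232, and no CCAAT.

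Maf and Gfi1, which are also lymphocyte factors, had their highest levels in the 4 libraries without Y-linked transcripts. Maf lies at chr8:115682942-115707794 on the minus strand and had 3.65 FPKM in the lowest, 3.96 at the median and 4.16 in the highest LPPC/mp/CD28 library, against 0.492, 1.11 and 10.3 FPKM in LPPC/mp/CD152. In LPPC/mp it was 4.38, 5.56 and 4.59 FPKM, and Naive libraries had 9.07, 10.2 and 0.151 FPKM. The 9 LPPC/mp/CD28 and LPPC/mp libraries lay between 8.19 to 10.3 FPKM in the libraries without Y-linked transcripts and 0.151 to 1.34 FPKM in the other 5. On the log2 scale the fold change was 0.14 ± 0.83 against Naive (adjusted p = 0.90) and 0.77 ± 0.68 against LPPC/mp/CD152 (adjusted p = 0.44). Without Naive 3 the change against Naive was -1.18 (adjusted p = 0.15).

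Gfi1 lies at chr5:107716657-107726036 on the minus strand and was the lowest of the 9 factors in 14 libraries. Its level was 0.585 FPKM in the lowest, 0.862 at the median and 0.945 in the highest LPPC/mp/CD28 library, against 0.279, 0.618 and 1.94 FPKM in LPPC/mp/CD152. LPPC/mp libraries had 0.954, 0.861 and 0.959 FPKM, and Naive libraries had 2.85, 1.98 and 0.0579 FPKM. The 4 libraries without Y-linked transcripts were the highest of the 18, at 1.78 to 2.85 FPKM. Its log2 fold change was -0.33 ± 0.47 against Naive (adjusted p = 0.58) and 0.06 ± 0.38 against LPPC/mp/CD152 (adjusted p = 0.93). Without Naive 3 the change against Naive was -1.12 (adjusted p = 0.016), and without Naive 1 it was 0.17.

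The count of factors that passed was read against all genes tested. In LPPC/mp/CD28 against Naive, 6 of 9 were higher and 0 lower, where 13.6% of the 11455 genes passed as higher and 21.9% as lower, and the median log2 fold change was 0.80 over the 9 factors and -0.13 over all genes. In LPPC/mp/CD28 against LPPC/mp/CD152, 6 of 9 were higher and 0 lower, where 11.3% of genes passed as higher and 19.3% as lower, and the medians were 0.77 and -0.12. For 5 of 9 factors (Spi1, Cebpb, Cebpd, Cebpe and Klf6) every LPPC/mp/CD28 library lay above every Naive library, as for 11.8% of genes, and for 6 of 9 (those 5 and Klf4) every LPPC/mp/CD28 library lay above every LPPC/mp/CD152 library, as for 12.4% of genes. The 2 comparisons share the LPPC/mp/CD28 libraries. With median-of-ratios scaling, 2137 genes were higher and 1707 lower against Naive and 1770 higher and 1541 lower against LPPC/mp/CD152, in place of 1558 and 2503 and of 1299 and 2213, and the same number of factors passed. Without Naive 1, without Naive 2 and without Naive 3 the genes called against Naive were 2656, 2691 and 7564, in place of 4061. When every library was scaled to its Spi1 level, which fixes Spi1 itself, 499 genes were higher and 6339 lower against Naive with a median log2 fold change of -0.96 over all genes, and 351 higher and 5813 lower against LPPC/mp/CD152 with a median of -0.76. Cebpe was then the 1 factor called higher against Naive (log2 fold change 0.70) and against LPPC/mp/CD152 (0.43), and Cebpa the 1 called lower (-0.68 and -0.88), its change against Naive being above the median of all genes.

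Without Naive 1 and 2 and LPPC/mp/CD152 2 and 5, 8 factors were higher and 1 lower in LPPC/mp/CD28 against Naive (25.6% of genes higher) and likewise against LPPC/mp/CD152 (28% of genes higher). Naive was then a single library, assumed to vary like the other groups. Without Naive 3 and LPPC/mp/CD152 1, 3, 4 and 6, 7 were higher and 2 lower in both comparisons (35.7% and 36.6% of genes higher). Of the 11455 genes tested, 5064 were lower against Naive and 4830 against LPPC/mp/CD152 without this second set of libraries. In all, 9148 and 9021 genes were then called in either direction, so a call in itself did not set a factor apart from most genes. Klf6 changed by 1.44 ± 0.07 and 0.82 ± 0.12 (log2, SE) against Naive without the first and the second set of libraries, and by 1.21 ± 0.04 and 1.19 ± 0.12 against LPPC/mp/CD152. Spi1 changed by 0.20 ± 0.07 and 1.23 ± 0.08 against Naive, and by 0.28 ± 0.04 and 1.50 ± 0.08 against LPPC/mp/CD152, so that its size depended most on the kind of library among the 6. Cebpa was -0.71 and 0.55 against Naive, Maf was 2.78 and -1.18, and Gfi1 was 1.25 and -1.12, all with an adjusted p under 0.05. Against LPPC/mp/CD152 these were -0.67 and 0.56 for Cebpa, 1.71 and -1.12 for Maf, and 0.50 and -0.83 for Gfi1.

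**Figure D3:**
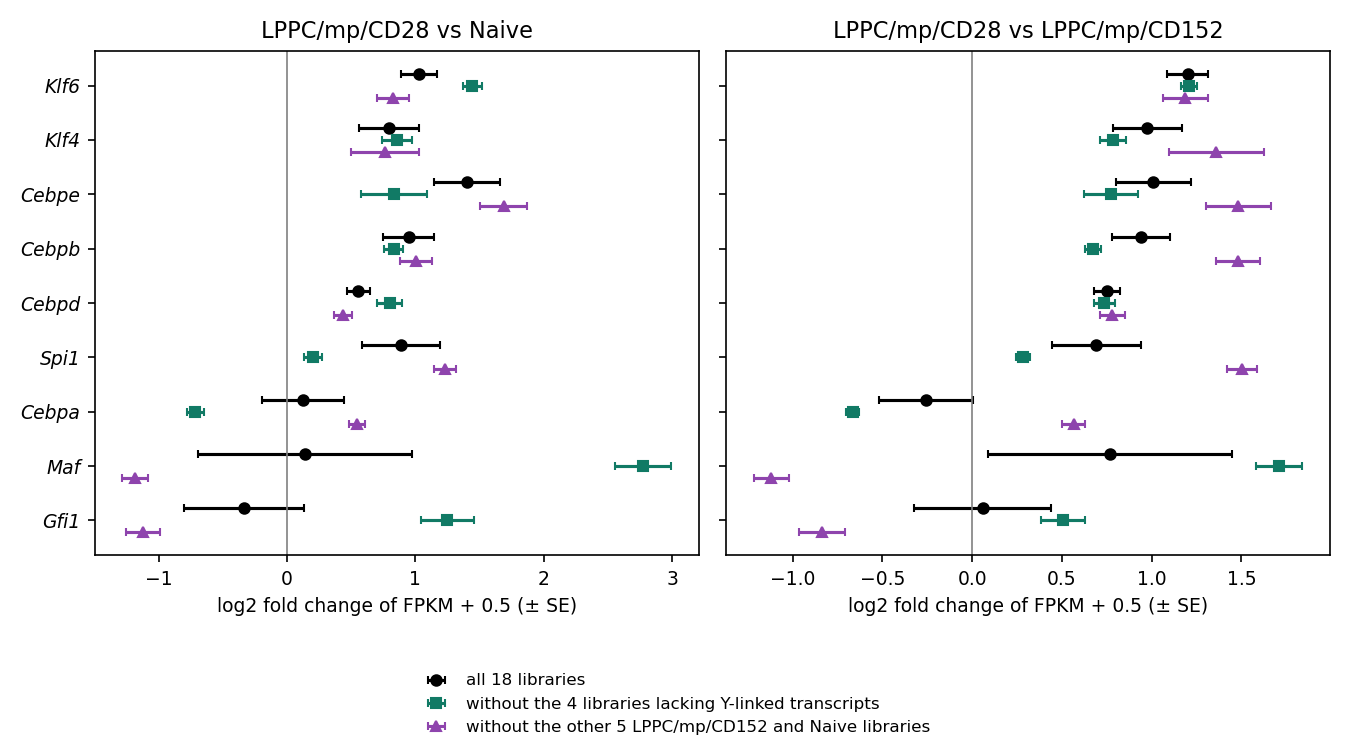
Log2 fold change of FPKM + 0.5 ± SE (horizontal axes) for each factor (vertical axis) in LPPC/mp/CD28 against Naive (left) and against LPPC/mp/CD152 (right), with all 18 libraries, without the 4 libraries lacking Y-linked transcripts, and without the other 5 LPPC/mp/CD152 and Naive libraries. The upper 6 factors stay right of 0 in all 3 fits, and Cebpa, Maf and Gfi1 lie on opposite sides of 0 between the 2 reduced fits.

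LPPC/mp, the groups' common starting treatment, was compared with Naive and with the antibody groups. In LPPC/mp against Naive 4 of 9 factors were higher, where 9.22% of genes were: Klf6 (log2 fold change 0.81, adjusted p = 0.0017), Cebpb (0.90, 0.0092), Cebpd (0.41, 0.0086) and Cebpe (1.01, 0.021). Spi1 was at 0.91 (adjusted p = 0.069) and Klf4 at 0.48 (0.19). Without the libraries lacking Y-linked transcripts, Spi1, Klf4 and Cebpe were at 0.22, 0.55 and 0.44, with a single Naive library and calls not given. Without the other LPPC/mp/CD152 and Naive libraries they were at 1.25, 0.45 and 1.29 (adjusted p = 2.1e-07, 0.18 and 1.1e-04). Cebpa, Maf and Gfi1 changed direction between these reduced fits. For 5 factors all LPPC/mp libraries lay above all Naive libraries, as for 13.2% of genes. Leaving out Naive 2 ended the call of Cebpb (0.71, 0.053), and leaving out LPPC/mp 2, Naive 1 or Naive 2 ended that of Cebpe (0.82, 0.80 and 0.93). Spi1 passed without LPPC/mp/CD152 2, without LPPC/mp/CD152 5 or without Naive 3 (0.91, 0.91 and 1.25), and Klf4 passed without Naive 1 (0.86). With only the LPPC/mp and Naive libraries fitted, none of the 9 passed, and 55 genes did, against 2871 in the fit of all groups. In LPPC/mp/CD152 against LPPC/mp 3 of 9 were lower, where 7.96% of genes were: Klf6 (-0.98, adjusted p = 9.2e-05), Cebpb (-0.89, 0.0037) and Cebpd (-0.61, 1.4e-04). Klf4 (-0.66, 0.054), Cebpe (-0.61, 0.11) and Spi1 (-0.71, 0.11) did not pass in the fit of all libraries. Their changes were -0.47, -0.38 and -0.30 without the libraries lacking Y-linked transcripts, a fit with a single Naive library whose calls are not given here. They were -1.05, -1.08 and -1.52 without the other LPPC/mp/CD152 and Naive libraries, where all passed (adjusted p = 0.0068, 4.3e-04 and 4.2e-08). Cebpa, Maf and Gfi1 took opposite directions between these reduced fits. For 5 factors all LPPC/mp/CD152 libraries lay below all LPPC/mp libraries, as for 13.6% of genes. Klf4 passed when Naive 1 or Naive 2 was left out (adjusted p = 0.0091 and 0.016).

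Between LPPC/mp/CD28 and LPPC/mp none of the 9 passed, and 0% of genes did by limma, with 133 genes at an unadjusted p under 0.05 and 163 genes called when libraries were weighted by their quality. Klf6 was at 0.22 ± 0.14 (log2, SE), Klf4 at 0.31 ± 0.23, Cebpe at 0.40 ± 0.25 and Spi1 at -0.02 ± 0.30. The SE of this fit comes from the spread within all 4 groups together. With Naive 1 and 2 and LPPC/mp/CD152 2 and 5 left out, these changes were the same. Their SE was then 0.05, 0.08, 0.17 and 0.04. With library weights 2 of the 9 factors were called higher. Klf6 had all 6 LPPC/mp/CD28 libraries above the 3 LPPC/mp libraries, as did 2.43% of genes, and Maf had all of them below, as did 3.82%. Between LPPC/mp/CD152 and Naive none of the 9 passed either, and 0% of genes did, with 507 genes at an unadjusted p under 0.05 and 6769 called with library weights. The factors lay between -0.63 (Maf) and 0.39 (Cebpe). Both groups held both kinds of library, and without Naive 1 and 2 and LPPC/mp/CD152 2 and 5 Maf was called higher at 1.07 (adjusted p = 0.012). Without Naive 3 alone 3834 genes and 4 of the 9 factors were called, all 4 lower: Cebpd (-0.32), Klf6 (-0.38), Maf (-1.95) and Gfi1 (-1.18).

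Levels per length can be ordered within a library. Spi1 was the highest of the 9 in FPKM in 14 libraries and Klf6 in the other 4, all without Y-linked transcripts. In the deposited coverage values Klf6 was the highest in 17 libraries and Spi1 in 1, so the order of these 2 rests on the unit. Over the 18 libraries, Pearson's r of log2(FPKM + 0.5) was 0.95 between Cebpd and Klf6, 0.91 between Cebpb and Klf4 and 0.91 between Maf and Gfi1, and -0.95 between Cebpa and Maf. These describe libraries that share groups and kinds and were not tested. The genes most like each factor by the same r were Atp6v1h, Sepn1 and Lgmn for Spi1 (0.992 to 0.993), Prtg, Shtn1 and Ugt1a6a for Cebpa (0.994 to 0.995), Pld4, Clic1 and Arc for Cebpb (0.988 to 0.991), and Ap1s3, Lysmd1 and Sirt2 for Cebpd (0.965 to 0.966). They were Ifitm6, Sdcbp and Dmwd for Cebpe (0.940 to 0.947), Tcf25, Atxn2l and Tgif1 for Klf4 (0.944 to 0.961), Trem1, Nfkbia and Etv3 for Klf6 (0.977 to 0.987), Zcchc24, Tcn2 and Clec4n for Maf (0.984 to 0.986), and Il4ra and Tcf7 for Gfi1 (0.983 and 0.980).

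Relatives and partners of the factors are given by list, beside the 13.6% of all genes higher and 21.9% lower in the same comparison. Of 8 C/EBP relatives and regulators tested, 2 were higher and 3 lower in LPPC/mp/CD28 than in Naive: Ddit3, the stress-induced C/EBP homologous protein, was at 58.6 to 66.2 FPKM in LPPC/mp/CD28 against 7.41 to 10.4 in Naive (log2 fold change 2.71, adjusted p = 1.8e-09), Nfil3 rose by 1.78, and Cebpz, Tef and Cebpg fell by 0.57, 0.60 and 0.26. Of 9 other Kruppel-like factors, Klf10 rose by 1.26, and Klf16 and Klf13 fell by 0.67 and 1.41. Of 9 MAF and BACH partners, the small MAF gene Maff rose by 1.80 and Nfe2l1 by 1.09, and Bach1, a repressor of MAF sites, fell by 0.49. Of 10 ETS and IRF partners of PU.1, Etv3 and Ets2 rose by 0.90 and 0.44 and Fli1 and Elf1 fell by 1.30 and 0.95, with a median of -0.80. Of 8 GFI1 relatives and co-repressors, 0 rose, and the co-repressor subunits Hdac1 and Rcor1 fell by 1.02 and 0.19. Of 23 other myeloid factors tested, 4 were higher (among them Egr1, 1.24, Id1, 1.28, and Bcl6, 0.72) and 3 lower (among them Hhex, -1.50). These values are from the fit of all 18 libraries, with both kinds of Naive library in it. Of the genes named, Cebpg, Klf13 and Elf1 overlapped between the 2 groups and the others did not. The lowest Naive values of Klf13 and Elf1 were 8.22 and 20.5 FPKM. These lay under the lowest LPPC/mp/CD28 values of 8.63 and 21.5 FPKM.

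Genes that these factors are known to regulate are given in the same comparison. All 5 primary granule genes tested were higher in LPPC/mp/CD28 than in Naive, with a median log2 fold change of 4.22: Mpo, myeloperoxidase, had 28.6 to 38.9 FPKM in LPPC/mp/CD28 against 0.164 to 4.84 FPKM in Naive, and Prtn3 (log2 fold change 4.61), Elane (4.22) and Ctsg (4.08) are neutrophil proteases. The filter was set on the mean of all 18 libraries, so that Ctsg and Ms4a3, which averaged under 0.5 FPKM in Naive, were tested only because of their levels in other groups. Of 9 secondary granule genes, which C/EBPε controls, 8 were higher, with a median of 3.02, among them Camp (4.85), Ltf (5.13), Ngp (5.82) and Lcn2 (4.77). Of 13 inflammatory genes linked to C/EBPβ and C/EBPδ, 12 were higher, with a median of 3.33: Saa3, an acute-phase protein, had 50.3 to 58.8 FPKM in LPPC/mp/CD28 against 0.237 to 0.759 FPKM in Naive, Il1rn and Il10 rose by 5.27 and 4.30, and Csf3, the growth factor of granulocytes, had 3.07 to 4.05 FPKM in LPPC/mp/CD28 against 0 to 0.06 FPKM in Naive. Of the 13, 5 (Csf3, Il10, Il6, Orm1 and Saa3) averaged under 0.5 FPKM in Naive and were likewise tested because of the other groups. Of 15 receptor genes of PU.1 and C/EBPα, 5 were higher and 1 lower. Itgam, the integrin CD11b, had 94.9 to 103 FPKM in LPPC/mp/CD28 against 10.0 to 24.1 FPKM in Naive, Fcgr1 and Fcer1g rose by 2.56 and 1.52, and Il6ra fell by 0.86. Of 12 macrophage genes linked to MAF and KLF4, 3 were higher (Il10, Stab1, 1.70, and Hmox1, 1.40), but the median was -0.80.

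In LPPC/mp/CD28 against LPPC/mp/CD152, 11.3% of all genes passed as higher and 19.3% as lower. The same lists gave 5 of 5 primary granule genes higher there (median 3.75), 9 of 9 secondary granule genes (2.96) and 11 of 13 inflammatory genes (2.99). Ms4a3 and 5 inflammatory genes (Csf3, Il10, Il6, Orm1 and Saa3) averaged under 0.5 FPKM in LPPC/mp/CD152. They were tested only because of their levels in other groups. Of 15 receptor genes 5 were higher and 1 lower, and 3 of 12 macrophage genes were higher with a median of -0.35. Without Naive 1 and 2 and LPPC/mp/CD152 2 and 5, the macrophage list had a median of 2.04 against Naive, which was then a single library. Without Naive 3 and LPPC/mp/CD152 1, 3, 4 and 6 it gave 3 of 12 higher and 8 lower with a median of -2.44. The primary granule genes were 5 of 5 higher in that second fit. Of the 11455 genes tested, 4084 were higher and 5064 lower in it.

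**Figure D4:**
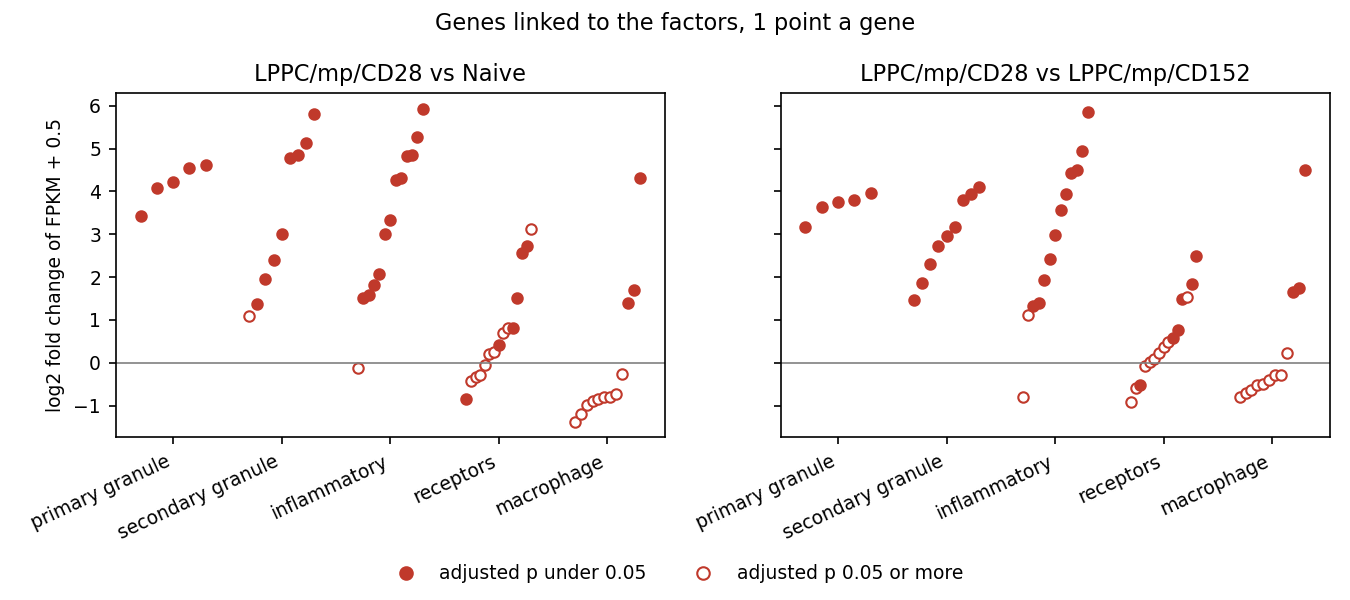
Log2 fold change of FPKM + 0.5 (vertical axis) for single genes of 5 lists linked to the factors (horizontal axis), in LPPC/mp/CD28 against Naive (left) and against LPPC/mp/CD152 (right), filled where the adjusted p was under 0.05. All 5 primary granule genes lie above 3 and are filled in both panels, while most macrophage genes lie below 0 and are open.

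Among the marker lists, the summed levels of the neutrophil list and of the basophil and mast cell list were higher in every LPPC/mp/CD28 library than in any LPPC/mp/CD152 or Naive library. Counts of marker genes stand beside the 13.6% of all genes higher and 21.9% lower in LPPC/mp/CD28 against Naive. Of 10 neutrophil genes tested 6 were higher and 0 lower in LPPC/mp/CD28 against Naive, and their summed level was 1945 to 2644 FPKM in LPPC/mp/CD28, 143 to 523 FPKM in LPPC/mp/CD152, 1377 to 1604 FPKM in LPPC/mp and 26.5 to 545 FPKM in Naive. Most of that sum in LPPC/mp/CD28 was S100a8, S100a9 and Ngp, with means of 608, 1053 and 468 FPKM. Csf3r and Cxcr2 averaged 7.61 and 3.21 FPKM in LPPC/mp/CD28 against 17.6 and 5.66 FPKM in Naive. The other listed neutrophil genes averaged higher in LPPC/mp/CD28. Of 5 basophil and mast cell genes tested 3 were higher and 0 lower, and the sum of the 7 listed was 17.8 to 24.4 FPKM in LPPC/mp/CD28, 1.03 to 14.4 FPKM in LPPC/mp/CD152, 12.4 to 13.3 FPKM in LPPC/mp and 0.0358 to 13.3 FPKM in Naive. Kit and Gata2 averaged 0.745 and 0.684 FPKM in LPPC/mp/CD28 against 3.52 and 0.965 FPKM in Naive. The other listed basophil and mast cell genes averaged higher in LPPC/mp/CD28. Prss34 averaged 0.389 FPKM in Naive and was tested only because of its levels in other groups. Of 10 macrophage genes 3 were higher and 0 lower, with a sum of 2104 to 2270 FPKM in LPPC/mp/CD28, 447 to 3514 FPKM in LPPC/mp/CD152, 2086 to 2198 FPKM in LPPC/mp and 462 to 3692 FPKM in Naive. Csf1r, C1qa, Mrc1 and Mertk averaged 71.5, 11.8, 2.92 and 1.03 FPKM in LPPC/mp/CD28 against 95.6, 45.9, 12.2 and 5.19 FPKM in Naive. The other listed macrophage genes averaged higher in LPPC/mp/CD28. Of 11 T cell and 9 B cell genes tested none passed, and the T cell sum was 67.6 to 114 FPKM in LPPC/mp/CD28, 37.3 to 466 FPKM in LPPC/mp/CD152, 105 to 139 FPKM in LPPC/mp and 8.69 to 735 FPKM in Naive. None of the neutrophil, macrophage or T cell genes was at 0 throughout a group. In bulk libraries fewer cells of a type and less RNA per cell cannot be told apart, and the part of these markers in the results was not tested.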

How the data were processed

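RNA of 18 libraries labelled mouse spleen was sequenced by the authors on an Illumina NovaSeq, and the deposited tables give, per gene and library, FPKM made by the authors from read counts and the coverage signal deposited beside it. The submitters' processing notes name mm10 and GATK 4.2. Aligner and quantifier: not given in the sources used here. A TPM column, whose assembled loci alone sum to the full total, was not used.

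Depth per library (5.21 to 7.92 aligned gigabases) was read from the ratio of coverage to FPKM over genes with 1 transcript. The tables hold no counts, so no counting interval is given. Groups are those of the labels. The 11455 protein-coding genes that averaged 0.5 FPKM or more in the 18 libraries were fitted on log2(FPKM + 0.5) by limma 3.58.1 in R 4.3.3 with an intensity trend and 4 group means. Fold changes on this scale understate those of low genes. A gene passed at a Benjamini-Hochberg adjusted p under 0.05. In simulated data with 200 genes changed by 1 on the log2 scale, 53% were recovered in LPPC/mp/CD28 against Naive and 65.5% in LPPC/mp/CD28 against LPPC/mp/CD152. The simulated noise was normal, independent between genes and of 1 size per gene in all groups. It held no kinds of library, so these shares need not apply to the real groups. Alternatives were other pseudocounts, filters and scalings, library weights, the replicate number as a block, fits of 2 groups and left-out libraries, and, chosen after seeing the data, quantile normalization and coverage in place of FPKM.

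The genes named are the 9 factors, the 3 genes most correlated with each, and up to 4 genes per list with the smallest adjusted p in LPPC/mp/CD28 against Naive, with other list members named where they say what a list holds. A gene that this rule names is not reported here. The factors and lists were chosen with earlier results of these data known.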

Additional observations from a re-analysis of the deposited data

Results flagged for a closer look

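Gfi1 was at 0.585 FPKM in LPPC/mp/CD28 6, below the 0.850 to 0.945 FPKM of the other 5 libraries of that group. The gap to the next library was 0.737 of the group's range, above the critical value of 0.625 for 6 libraries. Such a gap arises by chance in about 1 in 20 groups, and 18 groups were examined.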

How the results depend on the processing

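The 6 factors higher in LPPC/mp/CD28 kept their direction against LPPC/mp/CD152 under every alternative run, and against Naive under every one but the scaling to Spi1, for which Cebpd and Klf4 turned. Spi1 is not counted under that scaling, which sets it to 1 level in every library. The cause of each change below was not tested, except that fits with fewer libraries or no filter use fewer libraries or more genes by construction. With libraries scaled to Spi1, the genes called were 6838 in LPPC/mp/CD28 against Naive, 5337 in LPPC/mp against Naive, 4431 in LPPC/mp/CD152 against LPPC/mp and 6164 in LPPC/mp/CD28 against LPPC/mp/CD152 and the factors called were 2 in LPPC/mp/CD28 against Naive, 1 in LPPC/mp against Naive, 1 in LPPC/mp/CD152 against LPPC/mp and 2 in LPPC/mp/CD28 against LPPC/mp/CD152. There the log2 fold change turned its sign for Cebpa (-0.68), Cebpd (-0.28), Klf4 (-0.058) and Maf (-0.74) in LPPC/mp/CD28 against Naive, Cebpb (-0.19) in LPPC/mp/CD152 against Naive, Cebpa (-0.68), Cebpd (-0.44), Klf4 (-0.39), Klf6 (-0.10) and Maf (-0.51) in LPPC/mp against Naive, Cebpa (0.0072) in LPPC/mp/CD28 against LPPC/mp, Cebpd (0.055), Klf4 (0.015) and Gfi1 (0.38) in LPPC/mp/CD152 against LPPC/mp and Gfi1 (-0.47) in LPPC/mp/CD28 against LPPC/mp/CD152. With library weights, the genes called were 6917 in LPPC/mp/CD28 against Naive, 6769 in LPPC/mp/CD152 against Naive, 6693 in LPPC/mp against Naive, 163 in LPPC/mp/CD28 against LPPC/mp, 7938 in LPPC/mp/CD152 against LPPC/mp and 8337 in LPPC/mp/CD28 against LPPC/mp/CD152 and the factors called were 5 in LPPC/mp/CD152 against Naive, 2 in LPPC/mp/CD28 against LPPC/mp and 8 in LPPC/mp/CD152 against LPPC/mp. There the log2 fold change turned its sign for Maf (-1.05) in LPPC/mp/CD28 against Naive, Klf4 (0.42) in LPPC/mp/CD152 against Naive and Maf (-0.83) in LPPC/mp against Naive. Without Naive 1 and 2 and LPPC/mp/CD152 2 and 5, the genes called were 7051 in LPPC/mp/CD28 against Naive, 603 in LPPC/mp/CD152 against Naive, 6898 in LPPC/mp against Naive, 66 in LPPC/mp/CD28 against LPPC/mp, 7796 in LPPC/mp/CD152 against LPPC/mp and 8250 in LPPC/mp/CD28 against LPPC/mp/CD152 and the factors called were 1 in LPPC/mp/CD152 against Naive, 8 in LPPC/mp against Naive and 8 in LPPC/mp/CD152 against LPPC/mp. There the log2 fold change turned its sign for Cebpa (-0.71) and Gfi1 (1.25) in LPPC/mp/CD28 against Naive, Spi1 (-0.081), Cebpa (-0.047), Cebpd (0.065), Klf4 (0.074), Klf6 (0.24), Maf (1.07) and Gfi1 (0.74) in LPPC/mp/CD152 against Naive and Cebpa (-0.70) and Gfi1 (1.35) in LPPC/mp against Naive. Without Naive 3 and LPPC/mp/CD152 1, 3, 4 and 6, the genes called were 9148 in LPPC/mp/CD28 against Naive, 2 in LPPC/mp/CD152 against Naive, 8799 in LPPC/mp against Naive, 9 in LPPC/mp/CD28 against LPPC/mp, 8691 in LPPC/mp/CD152 against LPPC/mp and 9021 in LPPC/mp/CD28 against LPPC/mp/CD152 and the factors called were 8 in LPPC/mp against Naive and 9 in LPPC/mp/CD152 against LPPC/mp. There the log2 fold change turned its sign for Maf (-1.18) in LPPC/mp/CD28 against Naive, Spi1 (-0.27), Cebpa (-0.016) and Cebpb (-0.48) in LPPC/mp/CD152 against Naive, Maf (-0.93) in LPPC/mp against Naive, Cebpa (-0.58), Maf (0.86) and Gfi1 (0.73) in LPPC/mp/CD152 against LPPC/mp and Cebpa (0.56), Maf (-1.12) and Gfi1 (-0.83) in LPPC/mp/CD28 against LPPC/mp/CD152. With a pseudocount of 1, the log2 fold change turned its sign for Maf (-0.029) in LPPC/mp/CD28 against Naive. With the replicate number as a block, the log2 fold change turned its sign for Cebpb (-0.033) in LPPC/mp/CD152 against Naive and Spi1 (0.029) and Cebpa (0.0055) in LPPC/mp/CD28 against LPPC/mp. With only the 2 groups compared fitted, the genes called were 55 in LPPC/mp against Naive and 48 in LPPC/mp/CD28 against LPPC/mp and the factors called were 0 in LPPC/mp against Naive. With a pseudocount of 0.1, the log2 fold change turned its sign for Gfi1 (0.050) in LPPC/mp against Naive. With no filter on low values, the genes called were 39 in LPPC/mp/CD28 against LPPC/mp. With median-of-ratios scaling, the log2 fold change turned its sign for Spi1 (0.0047) and Cebpa (0.012) in LPPC/mp/CD28 against LPPC/mp. With quantile normalization, the log2 fold change turned its sign for Cebpa (0.0068) in LPPC/mp/CD28 against LPPC/mp and Gfi1 (-0.017) in LPPC/mp/CD28 against LPPC/mp/CD152. The replicate numbers did not pair the libraries: over 21 pairs with the same number, Pearson's r of their deviations from the group means ran from -0.64 to 0.91, and 13 were over 0.1. With the replicate number as a block, 3242 genes were called in LPPC/mp/CD28 against Naive, 2602 in LPPC/mp against Naive, 1897 in LPPC/mp/CD152 against LPPC/mp and 3370 in LPPC/mp/CD28 against LPPC/mp/CD152, and Spi1 passed in LPPC/mp against Naive (adjusted p = 0.049), with no other call of a factor changed by the block. Leaving out 1 library at a time gave these ranges of log2 fold change or of counts in LPPC/mp/CD28 against Naive genes called (2656 to 7564), Cebpa (-0.10 to 0.55), Maf (-1.18 to 0.84) and Gfi1 (-1.12 to 0.17), in LPPC/mp/CD152 against Naive genes called (0 to 3834), factors called (0 to 4), Spi1 (-0.059 to 0.54), Cebpb (-0.18 to 0.13), Klf4 (-0.53 to 0.20), Klf6 (-0.38 to 0.10), Maf (-1.95 to 0.069) and Gfi1 (-1.18 to 0.11), in LPPC/mp against Naive genes called (1778 to 6668), factors called (2 to 6), Cebpa (-0.084 to 0.56), Maf (-0.93 to 1.09) and Gfi1 (-1.02 to 0.28), in LPPC/mp/CD28 against LPPC/mp Spi1 (-0.050 to 0.00021) and Cebpa (-0.028 to 0.0044) and in LPPC/mp/CD28 against LPPC/mp/CD152 Gfi1 (-0.083 to 0.25). The highest counts of genes called against Naive were those without Naive 3. Leaving out any 1 library called 0 genes in LPPC/mp/CD28 against LPPC/mp. Of the other values for single factors, 583 kept their direction and their side of the threshold under the alternatives and 914 with 1 library left out. Depth in reads is unknown, so the counting error of levels near 0, as of Gfi1 and Maf, cannot be estimated here.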
